A study of Homo sapiens with 6 samples.

Results

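The miR-34 family was measured by 4 probes among the 1212 of a microRNA microarray table. They were taken by the miRBase accessions MIMAT0000255 (miR-34a-5p), MIMAT0000685 (miR-34b-5p), MIMAT0004676 (miR-34b-3p) and MIMAT0000686 (miR-34c-5p), and not by any measured value. Huh7 cells, a line derived from a human hepatocellular carcinoma, were kept for 72 h with 10 mM metformin (3 samples) or without metformin (control, 3 samples), and total RNA of each sample was labelled with Hy5 on a 1-colour array. All samples are of a single cell line. Separate cultures are not recorded for the samples of either group. The p-values therefore cover the spread seen among the deposited samples, part or all of which may be technical.

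MicroRNAs are short RNAs that guide Argonaute proteins to messenger RNAs, mainly through pairing of the seed near the 5′ end. The products of the miR-34 genes are known to repress cell cycle and survival genes such as CDK6, MET, BCL2 and SIRT1. Metformin, a biguanide used against diabetes, inhibits respiratory complex I and activates the energy sensor AMPK. The comparison asks whether the abundance of these microRNAs differs in hepatoma cells exposed to the drug.

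The mature sequences are shown because they set out which members can read the same targets. They are from RefSeq (GRCh38.p14), which matched 3 of the 4 members by name, and are written 5′ to 3′ with the seed, bases 2 to 8, in capitals.
miR-34a-5p: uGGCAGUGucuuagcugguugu
miR-34b-5p: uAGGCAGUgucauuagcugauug
miR-34b-3p: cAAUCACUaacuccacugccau

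The seed of miR-34b-5p is that of miR-34a-5p moved by a single base, and the longest run of bases that both contain, GGCAGUGUC, is 9 long. Letter for letter over bases 2 to 8, miR-34a-5p shared its seed with miR-449a and miR-449b-5p, which are made from another locus and are known from mice to share the work of miR-34 in ciliated epithelia. These are the 3 of 2370 mature sequences in the table (0.127%) that carry it. The member without a match, miR-34c-5p, is missing from that table. Its seed was therefore not compared, and the counts given here do not cover it. miR-34b-5p shared its seed with miR-449c-5p and miR-2682-5p (also 3 of 2370 sequences). The sequences of the miR-449 relatives show how far the resemblance goes.
miR-449a: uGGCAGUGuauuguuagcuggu
miR-449b-5p: aGGCAGUGuauuguuagcuggc
miR-449c-5p: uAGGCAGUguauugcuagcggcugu

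miR-34b-3p has a different seed and comes from the opposite arm of the miR-34b hairpin. It contains CACUGCC, the reverse complement of the miR-34a seed, and is among the 9 of 2370 mature sequences that do (0.380%, given strand only). Both arms were measured, and the hairpin is shown with the 2 mature arms in capitals.
MIR34B hairpin: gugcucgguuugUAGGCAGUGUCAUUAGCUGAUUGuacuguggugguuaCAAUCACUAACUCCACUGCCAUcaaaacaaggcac

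The 4 microRNAs come from 2 places in the genome. MIR34A, the hairpin of miR-34a, lies at chr1:9151668-9151777 within the span of the long noncoding RNA gene MIR34AHG, with mature miR-34a-5p at chr1:9151735-9151756 on the minus strand. MIR34B (chr11:111512938-111513021) and MIR34C (chr11:111513439-111513515) are separated by 417 bases and lie within the spans of the noncoding host gene MIR34BHG and the protein-coding gene BTG4. The 2 hairpins are known to be cut from a shared primary transcript. The gene table used here gives gene spans only, so exon and intron positions were not assigned.

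No member of the family passed the test for a change with metformin. By limma's moderated test with Benjamini-Hochberg adjustment over the 1038 probes that had a value on all 6 arrays, which include all 4 members, 0 of 4 members were called at an adjusted p under 0.05, against 0% of all probes. At an unadjusted p under 0.05 there were again 0 of 4, against 2.7% of all probes. Metformin and control values overlapped for each of the 4, and were separate for 7.61% of all probes. The group means differed by more than 2-fold for 0 of 4 members, against 0.771% of all probes, and for 2 of 4 members a 2-fold change lay outside the 95% interval, against 54.9%. The mean was higher with metformin for 3 of 4 members, the 5p strands, against 52.9% of all probes. In such RNA pools, a change in a fraction of the cells and a change in each cell cannot be told apart.

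miR-34a-5p, the product of the chromosome 1 hairpin, had intensities of 82.0, 143.6 and 119.8 in metformin replicates 1, 2 and 3, against 91.9, 68.1 and 115.7 in control replicates 1, 2 and 3. Metformin replicates 2 and 3 lay above every control sample, while metformin replicate 1 lay below 2 of the 3 controls. The means were 115 ± 31.1 with metformin and 91.9 ± 23.8 in control (SD, n = 3 each). On the log2 scale the difference was 0.32 (SE 0.31, 95% interval -0.40 to 1.04), or 1.25-fold, with a limma adjusted p = 0.991. Its two-sided exact permutation p was 0.4, where 3 arrays against 3 cannot give less than 0.1. The interval therefore runs from 1.32-fold lower to 2.05-fold higher. Leaving out a single array gave 0.12 (control replicate 2 omitted), 0.14 (metformin replicate 2 omitted), 0.50 (control replicate 3 omitted) or 0.55 (metformin replicate 1 omitted).

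miR-34b-5p, the first arm of the hairpin that opens the chromosome 11 cluster, had intensities of 23.0, 25.0 and 17.5 with metformin, against 16.2, 16.3 and 21.8 in control (replicates 1, 2 and 3). Metformin replicates 1 and 2 were above all controls and metformin replicate 3 was below control replicate 3. The log2 difference was 0.27 (SE 0.25, 95% interval -0.32 to 0.86), from means of 21.8 ± 3.88 with metformin and 18.1 ± 3.20 in control (SD, n = 3 each; limma adjusted p = 0.991). In the reported fit this interval excludes a 2-fold change in either direction, since its upper end is 1.81-fold. Omitting metformin replicate 2 gave 0.16, omitting control replicate 3 gave 0.41 and omitting metformin replicate 3 gave 0.42.

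miR-34c-5p, the product of the neighbouring hairpin, gave the largest difference of the 4 in size. Its intensities were 22.5, 20.6 and 22.5 with metformin, against 13.2, 12.3 and 23.4 in control. The metformin samples were close together, whereas control replicate 3 was the highest of all 6 samples and the other two controls were the lowest. The means were 21.9 ± 1.10 with metformin and 16.3 ± 6.17 in control (SD, n = 3 each). The log2 difference was 0.49 (SE 0.29, 95% interval -0.20 to 1.17), or 1.40-fold, with a limma adjusted p = 0.991. Without control replicate 3, the highest sample, it was 0.78, with an unadjusted limma p of 0.0164 and an adjusted p of 0.975. Without control replicate 2 it was 0.31. Over all 6 arrays the two-sided exact permutation p of the difference was 0.4, with 0.1 the smallest that can be reached. The adjusted p lay between 0.883 and 0.999 over the 18 alternative settings tried for this probe. The interval of the reported fit does not exclude a 2-fold increase, but it does exclude a decrease of more than 1.15-fold. This bound pools unequal log2 SDs, 0.07 with metformin and 0.51 in control. The lower end of the interval fell to -0.38 with limma's trend and robust settings and to -0.45 without control replicate 1.

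miR-34b-3p, the strand opposite miR-34b-5p, was the only member with a lower metformin mean. Its intensities were 17.9, 17.7 and 21.3 with metformin, against 19.7, 26.9 and 16.4 in control. The highest and the lowest of the 6 values were both controls. The means were 19.0 ± 2.02 with metformin and 21.0 ± 5.37 in control (SD, n = 3 each). The log2 difference was -0.12 (SE 0.26, 95% interval -0.72 to 0.48; limma adjusted p = 0.991), and it turned to 0.07 without control replicate 2. Omitting metformin replicate 2 gave -0.07, omitting metformin replicate 3 gave -0.21 and omitting control replicate 3 gave -0.28. A 2-fold change in either direction lies outside the interval.

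**Figure D1:**
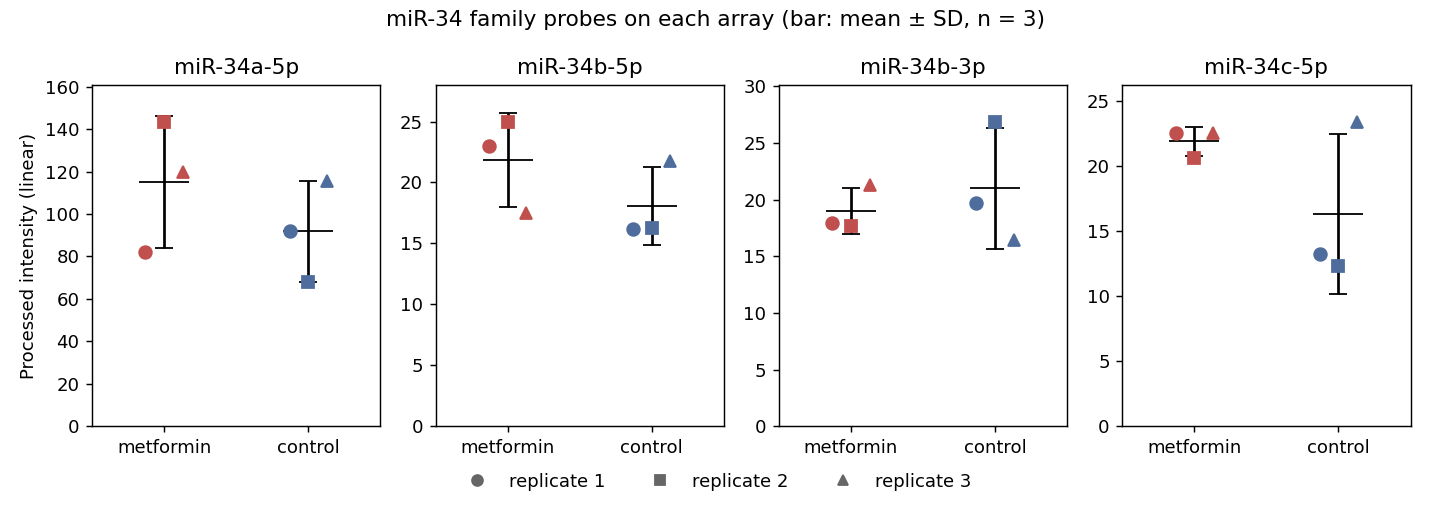
Processed intensity (linear axis from 0, its range differing between panels) of the 4 miR-34 probes on each array, with metformin left of control; symbols mark replicates and bars show the mean ± SD (n = 3). Metformin and control points overlap in every panel, and control replicate 3 of miR-34c-5p, at 23.4, is above all 3 metformin points.

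The 2 arms of the miR-34b hairpin were set against each other within each array. A ratio within an array is free of any single scaling factor applied to that array, but not of a background added to both probes. Both arms had a mean intensity of 19.7, below the median probe at 22.5. Whether they were above background was not tested, so the ratio of intensities need not follow that of the 2 arms. The log2 ratio of miR-34b-5p to miR-34b-3p differed between metformin and control by 0.39, from mean deviations of 0.20 ± 0.42 with metformin and -0.20 ± 0.57 in control (SD, n = 3 each). Its two-sided exact permutation p was 0.5, with 0.1 the smallest that can be reached. The ratio was chosen after the opposite signs of the 2 arms had been seen, and 3 arrays against 3 could not have passed a threshold of 0.05. The difference was 0.30 after quantile normalization. It was 0.13 with control replicate 2 omitted, 0.24 with metformin replicate 2 omitted, 0.69 with control replicate 3 omitted and 0.63 with metformin replicate 3 omitted. It was -0.30 among the last 3 arrays deposited and 0.86 among the first 3.

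Across the 6 arrays the 5p probes correlated positively with each other and negatively with miR-34b-3p. The deviations of the 5p probes did not have the same sign on every array. Control replicate 2 was low for miR-34a-5p (-0.56 from the probe's mean log2 intensity), miR-34b-5p (-0.27) and miR-34c-5p (-0.59), and high for miR-34b-3p (0.45). Control replicate 3 was above the mean for the 5p probes, at 0.21, 0.15 and 0.34 in the same order, and below it for miR-34b-3p (-0.27). Metformin replicate 1 was below the mean for miR-34a-5p (-0.29) and above it for miR-34b-5p (0.23) and miR-34c-5p (0.29). Metformin replicate 3 was below the mean for miR-34b-5p (-0.17) and above it for miR-34a-5p (0.26) and miR-34c-5p (0.29). After each array was centred on its median, Pearson's r over the 6 arrays was 0.72 between miR-34b-5p and miR-34c-5p, which share a transcript, 0.64 between miR-34a-5p and miR-34c-5p, and 0.56 between miR-34a-5p and miR-34b-5p. miR-34b-3p had an r of -0.63 with miR-34a-5p, -0.65 with miR-34b-5p and -0.78 with miR-34c-5p. These values describe 6 arrays that share their scaling. Of 1037 other probes, 86 had a higher r with miR-34c-5p than miR-34b-5p did, and 1025 had a higher r with it than miR-34b-3p did. With miR-34b-3p, 861 of 1037 probes had a higher r than miR-34a-5p did, 886 than miR-34b-5p and 958 than miR-34c-5p. With miR-34a-5p, 285 of 1037 probes had a higher r than miR-34b-5p did, and 235 a higher r than miR-34c-5p did.

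**Figure D2:**
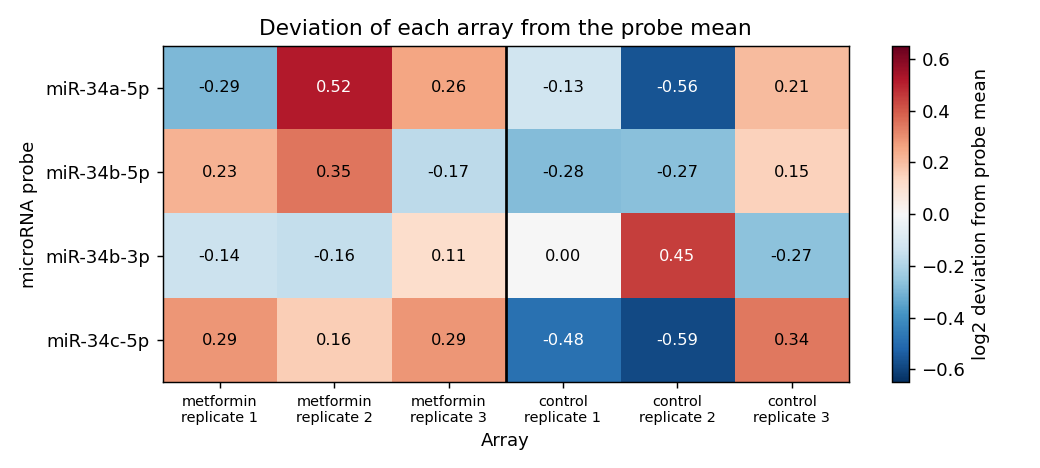
Deviation (log2, colour scale) of each array (columns, metformin then control) from the mean of each miR-34 probe (rows). The 5p probes are low on control replicate 2, down to -0.59, where miR-34b-3p is high at 0.45.

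The family fell into distinct ranges of brightness. Probes bind and label unequally, so these intensities do not rank the microRNAs by abundance, but brightness bears on how precisely each was measured. miR-34a-5p had a mean intensity of 100.4 (geometric, over 6 arrays) and stood at the 90.5th percentile of tested probes, with between 89.7% and 92.1% of the values on each array below it. The chromosome 11 members had mean intensities of 19.7 (miR-34b-5p), 19.7 (miR-34b-3p) and 18.5 (miR-34c-5p), at percentiles 34.7, 34.8 and 27.9, below the median probe at 22.5. The lowest values on the arrays ranged from 4.70 to 6.20. Background readings were not analysed here, so whether miR-34b and miR-34c were above background was not tested, and for these 3 probes a bound on the change in intensity need not bound a change in the microRNA.

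In the reported fit the brighter miR-34a-5p had the largest SE of the 4 members. Its pooled SD within groups was 0.40 on the log2 scale, above the median of 0.24 for the 260 tested probes with mean intensities from 32.5 upwards, and 30 of these had a larger one. The dimmer members had pooled SDs of 0.26 (miR-34b-5p), 0.28 (miR-34b-3p) and 0.36 (miR-34c-5p), all below the median of 0.44 for the 259 probes with mean intensity 18.1 to 22.5. Among those 259 probes, 58 had a larger absolute difference than miR-34c-5p, 128 than miR-34b-5p and 198 than miR-34b-3p. For miR-34a-5p it was 35 of 260. When the variance was modelled on brightness (limma with trend and robust settings), miR-34a-5p instead had the smallest SE, 0.23 (95% interval -0.16 to 0.80). The SEs were 0.36 for miR-34b-5p, 0.36 for miR-34b-3p and 0.41 for miR-34c-5p. The interval of miR-34b-5p was then -0.49 to 1.03 and no longer excluded a 2-fold increase. That of miR-34b-3p, -0.88 to 0.64, still excluded a 2-fold change. For miR-34c-5p the interval widened to -0.38 to 1.35.

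**Figure D3:**
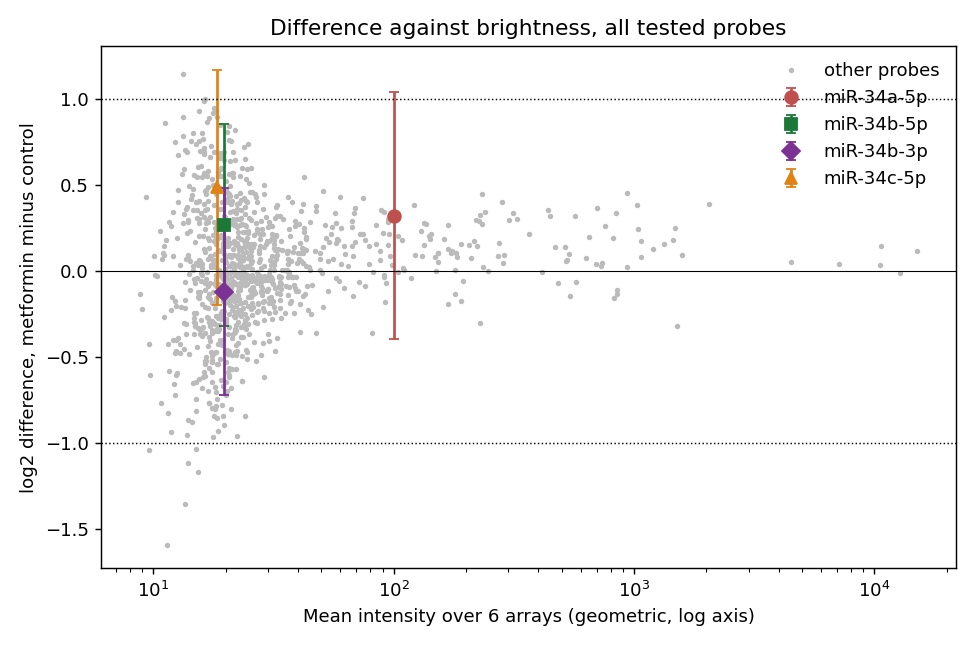
log2 difference (metformin minus control) against mean intensity (log axis) for 1038 tested probes (grey), with the 4 miR-34 probes in colour and their 95% intervals; dotted lines mark a 2-fold change. miR-34a-5p, at a mean of 100.4, lies to the right of the dense cloud that holds the other members, and all 4 intervals cross 0.

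The level of miR-34a-5p followed the total signal of the arrays. The 3 arrays with the highest summed intensity were metformin replicate 2 (147272), control replicate 3 (139060) and metformin replicate 3 (134695), and these gave the 3 highest miR-34a-5p values of 143.6, 115.7 and 119.8, with the order of the last pair exchanged. The other arrays had sums of 124618 (metformin replicate 1), 128625 (control replicate 1) and 116774 (control replicate 2), with miR-34a-5p at 82.0, 91.9 and 68.1, in the same order as their sums. The pattern was not particular to miR-34a-5p. For the 260 brightest probes the median log2 deviation was 0.19 (metformin replicate 2), 0.08 (control replicate 3) and 0.03 (metformin replicate 3). On the other arrays it was -0.06 (metformin replicate 1), -0.02 (control replicate 1) and -0.19 (control replicate 2). The 3 brighter arrays are also the last 3 deposited, although the labels name no batch. More of them are metformin than control samples, and the reverse holds for the first 3. Treatment, array brightness and place in the deposit therefore cannot be fully told apart.

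The scaling of the arrays moved the miR-34a-5p difference. It was 0.17 after quantile normalization (95% interval -0.39 to 0.73, adjusted p = 0.999) and 0.22 after each array was centred on its 260 brightest probes (-0.37 to 0.81, adjusted p = 0.985), and its pooled SD became 0.26 and 0.27. Centring each array on its 75th percentile instead gave 0.34 (-0.32 to 0.996), and centring on its median also gave 0.34 (-0.38 to 1.06). With the first 3 and last 3 arrays deposited as a block it was 0.12 (-0.47 to 0.70, adjusted p = 0.986), and it was 0.05 among the first 3 arrays alone and 0.18 among the last 3. The intervals under quantile normalization, brightest-probe centring and the block all exclude a 2-fold change, while that of the reported fit does not. For miR-34c-5p the same quantile normalization gave 0.52, the block 0.35, the first 3 arrays 0.82 and the last 3 arrays -0.12. For miR-34b-5p the values within the first 3 and last 3 arrays were 0.50 and -0.06, and for miR-34b-3p -0.36 and 0.24.

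**Figure D4:**
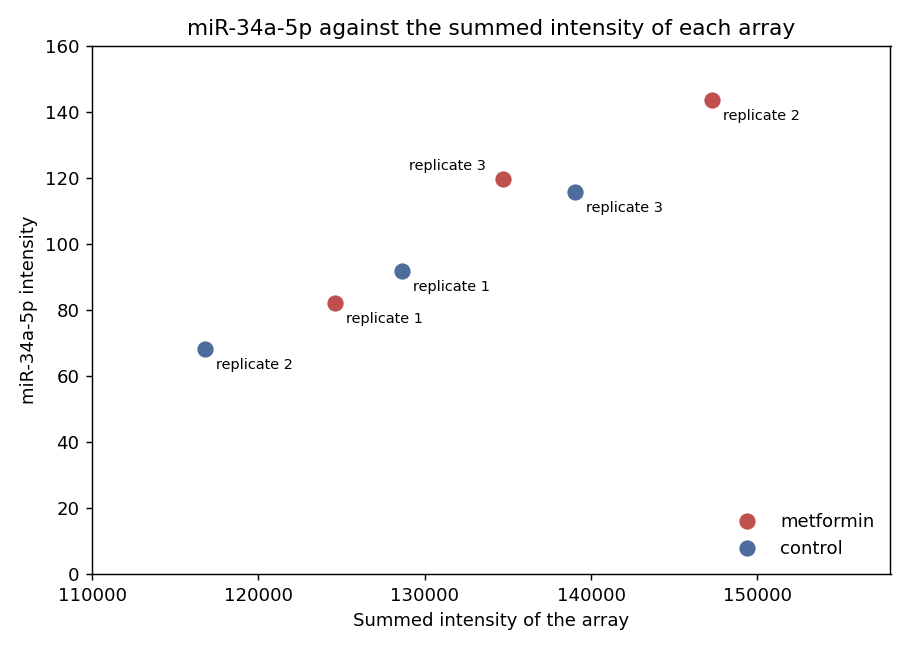
miR-34a-5p intensity (axis from 0) against the summed intensity of each array (axis not from 0), for metformin and control samples. Values run from 68.1 on control replicate 2, the array with the lowest sum, to 143.6 on metformin replicate 2, the array with the highest.

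**Figure D5:**
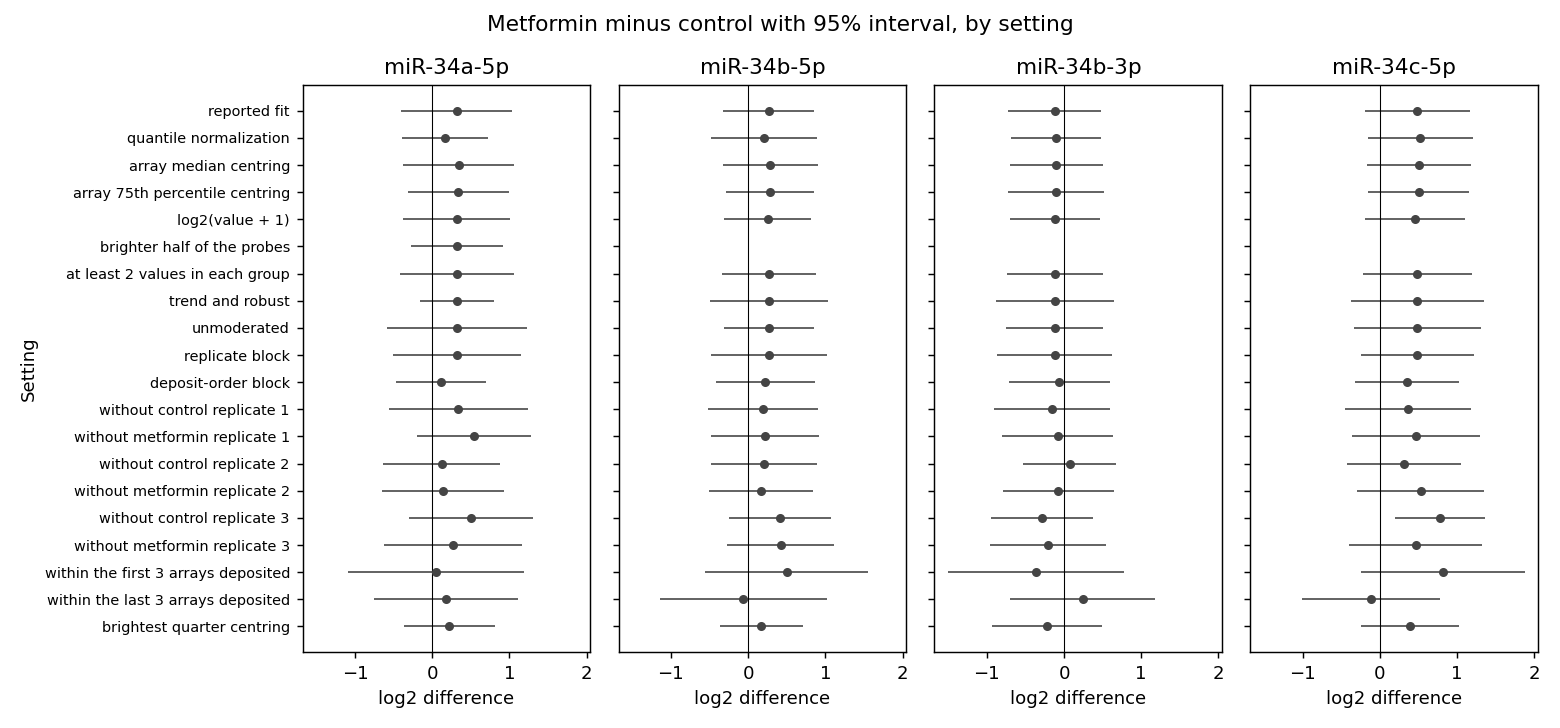
log2 difference (metformin minus control, horizontal axis) with its 95% interval for each miR-34 probe (panels) under each setting (rows). All differences of miR-34a-5p lie above 0, from 0.05 to 0.55, but each of its intervals includes 0. Those of the other members cross 0 in at least 1 setting each. The only interval that excludes 0 is that of miR-34c-5p without control replicate 3 (0.20 to 1.36). The settings reuse the same arrays.

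The probes whose pattern over the 6 arrays was most like that of a member were not other members. After median centring, the 3 closest of 1037 probes had Pearson's r of 0.98 to 0.99 with miR-34a-5p, 0.97 to 0.99 with miR-34b-5p, 0.95 to 0.97 with miR-34b-3p and 0.95 to 0.97 with miR-34c-5p. The closest to miR-34a-5p, MIMAT0003280, has no name in the tables used here. For miR-34a-5p, 235 probes had a higher r than miR-34c-5p, the other member with the highest r (0.64).

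The miR-449 relatives, the passenger strands of the miR-34 hairpins and hepatocyte, blood, muscle and neural marker microRNAs were listed for comparison. They were not analysed here, since the tables used pair accessions with names for the 4 members alone. The identity of the cells was therefore not checked against marker microRNAs.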

How the data were processed

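The deposited table holds 1 column per sample of processed linear intensity values, per the labels from Hy5-labelled total RNA. The sources used here do not give the scanner, background correction or scaling. The intensity unit is inferred from the deposited values, which are all above 0 with medians between 22.8 and 24.1. Each array has 1099 to 1209 values, and the number of arrays limits the precision. Metformin replicate 2 lacks a value for 113 probes, against 3 to 36 on each of the other arrays. Values were converted to log2 without a pseudocount, from the authors' intensities, and the 1038 probes measured on all 6 arrays were fitted with limma 3.58.1 (R 4.3.3, lmFit and eBayes, two-sided, no covariates), metformin minus control, with Benjamini-Hochberg adjustment over all of them. The fit was tested on simulated data. Figures used matplotlib 3.10.9. The members, lists and alternatives were chosen with earlier results of these data known. Genes named are the members. The rule also allowed the 3 probes of highest r with each member, but as these carry no microRNA name their r is given as a range and a single accession is printed. The 8 other lists, among them other hairpin arms, miR-449, and hepatocyte, blood, fibroblast and muscle, and neural markers, were not run, because 0 entries of the reference tables carry a miRBase accession. Sequences and positions are RefSeq's. Brightest-probe centring, the fits within the first and last 3 arrays and the arm ratio were added after seeing the data.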

Additional observations from a re-analysis of the deposited data

How the results depend on the processing

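Over 19 alternative settings limma called 0 probes higher and 0 lower with metformin, the same numbers as reported, with 10 to 50 probes at an unadjusted p under 0.05 against 28. None of the 73 refits of the 4 members gave an adjusted p under 0.05 (range 0.883 to 0.999), and 1 had an unadjusted p under 0.05, that of miR-34c-5p without control replicate 3 (difference 0.78). The sign turned in 4 refits: miR-34b-3p without control replicate 2 (0.072), and within the last 3 arrays deposited miR-34b-5p (-0.060), miR-34b-3p (0.24) and miR-34c-5p (-0.12). The cause was not tested, and each fit within 3 arrays has a lone array in a group, whose spread was taken from the other group. With 1 array left out, differences ranged from 0.12 to 0.55 for miR-34a-5p, 0.16 to 0.42 for miR-34b-5p, -0.28 to 0.07 for miR-34b-3p and 0.31 to 0.78 for miR-34c-5p. For miR-34a-5p the extremes were without control replicate 2 (0.12) and without metformin replicate 1 (0.55), and it was 0.14 without metformin replicate 2. The interval excluded a 2-fold change in 8 of 19 settings for miR-34a-5p, 12 of 18 for miR-34b-5p, 16 of 18 for miR-34b-3p and 0 of 18 for miR-34c-5p. The chromosome 11 members are not above the median brightness, so the setting restricted to the 519 brighter probes gave no value for them. Replicate numbers shared by the groups were not treated as pairs: deviations from group means correlated with r of 0.01, -0.27 and -0.02 for numbers 1, 2 and 3. The replicate block gave 0 calls and 24 probes at an unadjusted p under 0.05. The differences of the members are the same by construction, with SEs of 0.34 (miR-34a-5p) to 0.30 (miR-34c-5p).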
